A study of Mus musculus with 2 samples.

Results

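Small nucleolar RNA host genes are transcribed like messenger RNA genes, but in most of them the introns carry the product. Splicing frees each intron, and the small nucleolar RNA (snoRNA) inside it is trimmed out and bound by proteins. C/D box snoRNAs guide 2'-O-methylation and H/ACA box snoRNAs guide pseudouridylation, mostly of ribosomal RNA. The spliced exons of the non-coding hosts hold no long reading frame. Many of these host RNAs begin with a run of pyrimidines, like messenger RNAs of the translation machinery, and are short-lived because translating ribosomes expose them to nonsense-mediated decay.

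The 9 non-coding hosts described here are Snhg1, Snhg3, Snhg4, Snhg5, Snhg6, Snhg8, Snhg12, Gas5 and 2410006H16Rik, which is also named Snhg29. They were picked by name, with the values of both libraries known, so their values are a description and support nothing about the group. Of the 9, 7 had a row among the 25749 genes of the deposited tables. Values of Snhg3 and Snhg4 were not analysed here.

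E14.1 is a mouse embryonic stem (ES) cell line. One E14.1 library came from cells with T136A AHCY, in which alanine replaces the threonine at that position, and the other from cells with WT AHCY. AHCY breaks down S-adenosylhomocysteine, the by-product of methylation reactions. RNA was extracted with Trizol, turned into libraries with a TruSeq RNA kit and read on an Illumina GAIIx, per the labels' protocols. How AHCY was altered, whether each line is 1 clone, and how the cells were grown are not stated in the labels used here. Each genotype had 1 library, so no difference below has a replicate check, and no p-value is given. Levels are in RPKM, read numbers scaled to exon length and library total, from 18396840 implied reads in the T136A library and 17506153 in the WT library.

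The hosts that stood farthest apart between the libraries were Snhg1, 2410006H16Rik and Snhg12, and their promoters are shown because their shared and unshared letters can be read directly. The second RefSeq start of Gas5, a host whose level was nearly the same in both libraries, is shown for contrast. Each line runs 5′ to 3′ from 50 bases before the RefSeq start to 50 bases after it (RefSeq, build GRCm38.p6), and capitals mark a run of at least 5 pyrimidines that begins with C within 5 bases of the start.
Snhg1 (chr19:8723437-8723536, plus strand): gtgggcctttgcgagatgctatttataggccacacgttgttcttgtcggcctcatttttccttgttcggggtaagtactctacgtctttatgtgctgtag
2410006H16Rik (chr11:62602827-62602926, plus strand): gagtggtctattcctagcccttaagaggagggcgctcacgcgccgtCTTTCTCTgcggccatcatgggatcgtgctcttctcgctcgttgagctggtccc
Snhg12 (chr4:132308628-132308727, plus strand): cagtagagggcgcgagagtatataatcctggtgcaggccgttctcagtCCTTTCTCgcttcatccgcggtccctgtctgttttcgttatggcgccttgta
Gas5, second start (chr1:161035116-161035215, plus strand): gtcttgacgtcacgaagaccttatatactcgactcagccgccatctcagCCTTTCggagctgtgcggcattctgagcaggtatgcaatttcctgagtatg
The run was 8 bases long in 2410006H16Rik and in Snhg12, and 6 bases long in Gas5. No such run stood at the start of Snhg1, the host with the largest difference. In Snhg1, a run of more than 5 pyrimidines does begin within 5 bases of the start, but with T, so the rule does not count it. RefSeq promoters were found for 6 of the 7 hosts with a row (no entry for Snhg6), and 4 of these 6 held the run at an entry. Snhg8 also had one and Snhg5 had none, and Gas5 had it at its second start but not at its first. Among all 32851 promoter entries, 18.3% held such a run. The starts were not checked against other data, so an absence holds for the RefSeq start and this rule only. In Snhg5, a run of 5 pyrimidines that begins with C lies just past the stretch allowed.

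Promoters were also searched on both strands for short motifs, in the window from 250 bases before to 50 bases after the start. The motifs were chosen after the values and sequences were seen, and a match is a description of letters, not a binding site. A TATA box, spelled TATAAA or TATATA, was found in 5 of the 6 hosts, against 17.1% of all promoters. The units differ: a host was counted if any of its entries matched, while the percents are over single promoter entries, 32851 for 27025 genes. The 6 hosts had 7 entries, and the first start of Gas5 held neither a TATA box nor the pyrimidine run. It lay 29 bases upstream in Snhg1, on the other strand, 32 upstream in Snhg12, 30 in Snhg8, 23 in Snhg5 and 29 in the second start of Gas5. 2410006H16Rik had neither spelling in this window. TGACGTCA, the cyclic AMP response element, was found 46 bases upstream of the second start of Gas5 and is in 1.79% of all promoters. TGATGNAA, the composite element bound by C/EBP and ATF factors, was in 0 of the 6 hosts and in 3.97% of all promoters. The E-box CACGTG was in 0 of the 6 and in 7.15% of all. Neither the pyrimidine run nor a TATA box was found in all of the hosts that were at least 2-fold lower and in none of the others.

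Snhg1 (ENSMUSG00000108414; GRCm38, GENCODE M21, chr19:8723475-8726443, plus strand), which carries 8 snoRNAs, was measured at 15.3 RPKM in the T136A library and 142 RPKM in the WT library. It was 9.29-fold lower in T136A (95% interval 8.65 to 9.99). This interval, here and below, comes from reads recovered from the RPKM values by an exact conditional binomial method, and it covers counting error only. Those reads numbered 834 in T136A and 7373 in WT. Among the 12320 genes that reached 1 RPKM in either library, Snhg1 was number 3614 by level in T136A and number 391 in WT. Ordered by log2 ratio, T136A over WT with 1 RPKM added to each value, it stood at number 4 from the lowest, at -3.13. In bulk RNA, a lower level per cell and fewer cells with the transcript cannot be told apart.

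2410006H16Rik (ENSMUSG00000086841; chr11:62602877-62604807, plus strand) hosts Snord49a, Snord49b and Snord65, guides of 2'-O-methylation. It was the most abundant host per length in both libraries, with 109 RPKM in T136A and 704 RPKM in WT. It was 6.45-fold lower in T136A (6.02 to 6.92), from 927 reads in T136A and 5692 in WT. Its log2 ratio was -2.68, number 9 from the lowest. The gene was number 558 by level in T136A and number 66 in WT, so it was still the strongest of the hosts in the library where it was lower.

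Snhg12 (ENSMUSG00000086290; chr4:132308623-132311024, plus strand), which carries mainly H/ACA snoRNAs, had 9.26 RPKM in T136A and 36.4 RPKM in WT. It was 3.93-fold lower in T136A (3.44 to 4.51), with a log2 ratio of -1.87, number 42 from the lowest. Its values did not give whole reads with the GENCODE M21 exon length of 2402 bases. The reads, 277 in T136A and 1037 in WT, were therefore taken from the ratio of its values, which implies an exon length of 1626 bases. Its interval rests on that step.

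The other 4 hosts were within 2-fold. Snhg8 (ENSMUSG00000104960; chr3:123507552-123508404, minus strand), host of the H/ACA snoRNA Snora24, had 14.8 RPKM in T136A and 22.8 RPKM in WT. That was 1.54-fold lower (1.30 to 1.83), from 232 reads in T136A and 340 in WT, with a log2 ratio of -0.59. Gas5 (ENSMUSG00000053332; chr1:161034422-161038539, plus strand), named for its accumulation in growth-arrested cells, had 5.13 RPKM in T136A and 5.33 RPKM in WT. The fold of Gas5 was 0.962 (0.828 to 1.12), from 355 reads in T136A and 351 in WT, so its interval included 1.

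Snhg5 and Snhg6 were the hosts with a higher level in T136A. Snhg5 (ENSMUSG00000097195; chr9:88521050-88522929, minus strand), host of Snord50a and Snord50b, had 22.9 RPKM in T136A and 19.5 RPKM in WT, a fold of 1.17 (1.05 to 1.31) from 730 reads in T136A and 592 in WT. Snhg6 (ENSMUSG00000098234; chr1:9941959-9944118, minus strand), host of Snord87, had 14.9 RPKM in T136A and 8.62 RPKM in WT, a fold of 1.73 (1.43 to 2.10) from 315 reads in T136A and 173 in WT. Their log2 ratios were 0.22 and 0.73, on the opposite side of 0 from those of the other 5 hosts.

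**Figure D1:**
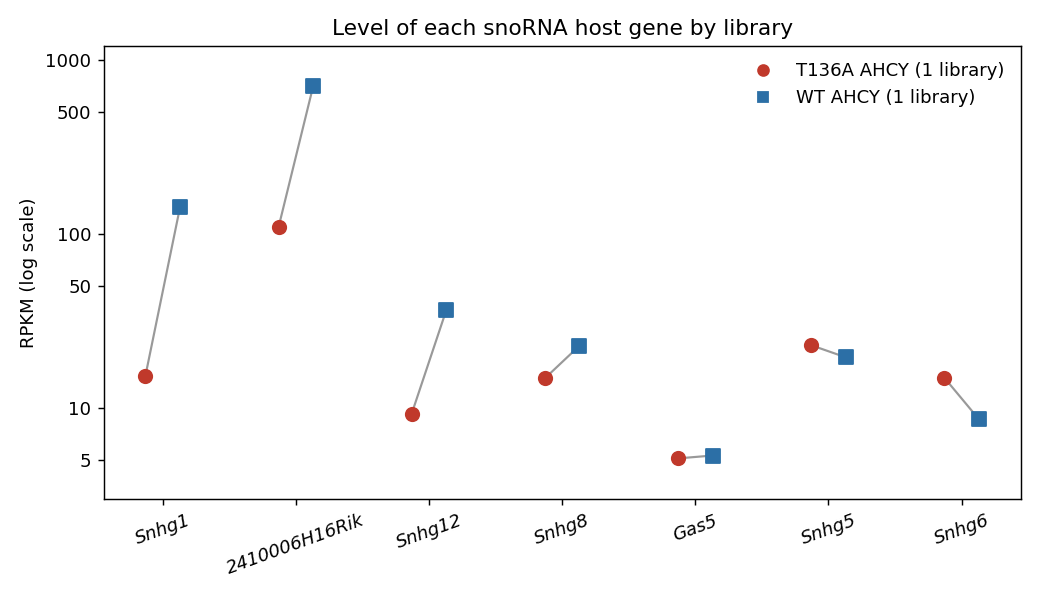
Level of each of the 7 measured hosts (RPKM, log scale) in the T136A library (circles) and the WT library (squares), 1 library each, with a line joining the values of a gene. The 3 hosts on the left are at least 2-fold lower in T136A, Gas5 lies at 5.13 and 5.33 RPKM, and the lines of Snhg5 and Snhg6 slope the other way.

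By count, 3 of the 7 measured hosts passed 2-fold downward in T136A on the log2 scale, and 0 passed it upward. Among all 12320 genes, 3.1% (382) passed it downward and 3.13% (386) upward. Among the 363 long non-coding RNA genes at that level the shares were larger, 9.37% lower and 9.09% higher. The hosts were chosen with these values known, so nothing is read from their share. Of the 7, 5 had a log2 ratio below 0, against 52.6% of all genes, and 2 were above 0, against 47.4% of all genes. The median over the hosts was -0.59, against -0.03 over all genes and -0.12 over long non-coding RNA genes. The central 68% of all genes ran from -0.47 to 0.44; Snhg5 and Gas5 lay inside it, and Snhg8 and Snhg6 outside it on either side. The interval of the fold excluded 1 for 6 of the 7 hosts, as it did for 68.6% of the 10769 genes with recovered reads.

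**Figure D2:**
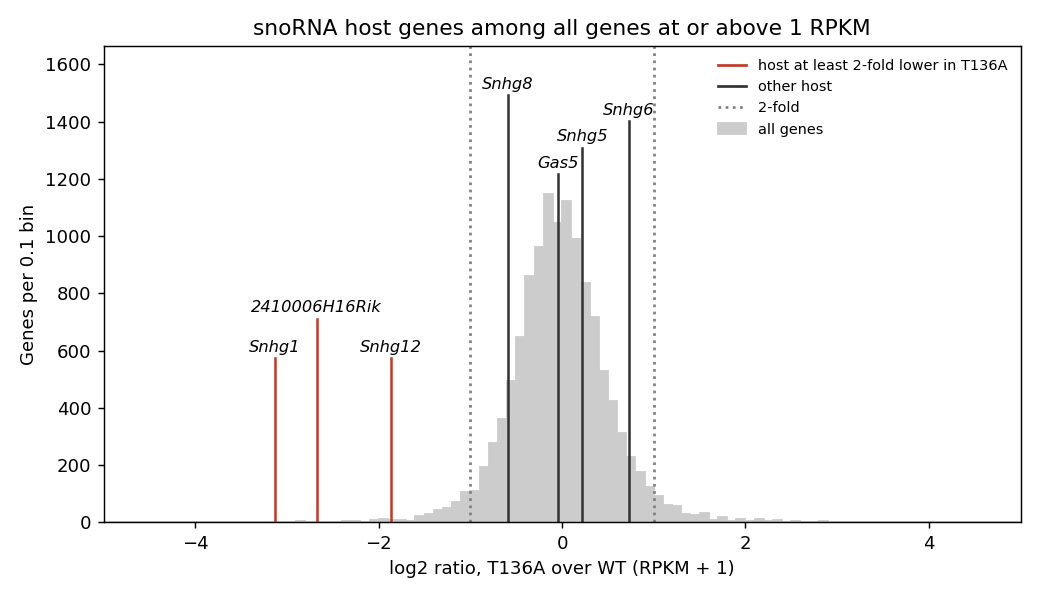
Number of genes per 0.1 bin of the log2 ratio, T136A over WT with 1 RPKM added, for 12320 genes (grey), with a vertical line at each host (red, at least 2-fold lower in T136A; black, within 2-fold) and dotted lines at 2-fold; line heights only separate the names. Snhg1, 2410006H16Rik and Snhg12 lie in the sparse lower tail, and the other 4 lie between the dotted lines.

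Summed, the 7 hosts gave 191 RPKM in T136A and 938 RPKM in WT, 4.90-fold lower in T136A. Their recovered reads numbered 3670 in T136A and 15558 in WT. The sum was carried by Snhg1, 2410006H16Rik and Snhg12, which held 69.8% of it in T136A and 94.0% in WT. The 4 remaining hosts together gave 57.8 RPKM in T136A and 56.3 RPKM in WT. The hosts thus differed among themselves more than their sum shows, with log2 ratios from -3.13 to 0.73.

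What a level stands for depends on the gene model. The hosts with a model in GENCODE M21, Snhg3 among them, hold 30 annotated snoRNA loci. In Snhg1 the exons of its 18 transcripts, 14 of them annotated with a retained intron, together cover 100% of the gene, so all 8 snoRNA loci lie in counted sequence. The same holds for the 9 loci of Gas5, where 20 of 25 transcripts retain an intron, the 2 of Snhg5 and the 1 of Snhg8. In these genes a read from a spliced transcript, an unspliced one or a snoRNA counts alike and cannot be told apart. In 2410006H16Rik, exons cover 23.9% of the gene (462 of 1931 bases) and all 3 loci lie outside them, and in Snhg6 the 1 locus does too. For Snhg12 the M21 exons cover all 4 loci, but the implied exon length shows that the authors' values rest on a shorter model. So the lower levels in T136A were seen both in a host whose snoRNA loci are inside the counted exons (Snhg1) and in one whose loci are outside (2410006H16Rik), and so were levels within 2-fold, in Gas5 and Snhg6.

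**Figure D3:**
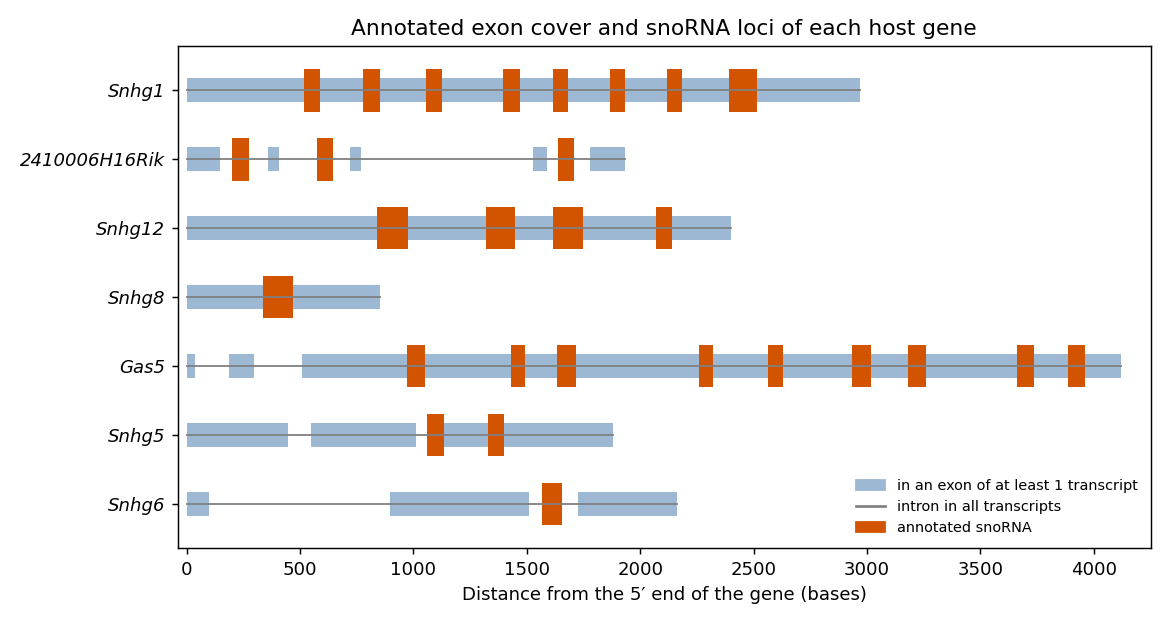
Each measured host drawn to scale from its 5′ end (bases), with stretches that are exon in at least 1 GENCODE M21 transcript in blue, introns as a line, and annotated snoRNAs in orange. The 8 loci of Snhg1 lie within blue, and the 3 loci of 2410006H16Rik lie on the intron line.

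Of the snoRNA genes inside the hosts, 3 had a row. A pair of them, from 2410006H16Rik, is shown because their host was 6.45-fold lower. Capitals mark the C box near the 5′ end and the D box near the 3′ end (GRCm38, sequences from GENCODE M21).
Snord49a (chr11:62603450-62603521, plus strand): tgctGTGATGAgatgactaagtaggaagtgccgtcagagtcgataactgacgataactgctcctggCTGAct
Snord49b (chr11:62603079-62603150, plus strand): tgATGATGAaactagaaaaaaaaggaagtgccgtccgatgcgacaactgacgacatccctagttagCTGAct
Snord49a was listed at 11.3 RPKM in T136A and 7.93 RPKM in WT, which is 15 and 10 reads. Snord49b was listed at 0.755 RPKM in T136A, 1 read, and at 0 in WT. Snora16a of Snhg12 was listed at 0 in both libraries. The fold of Snord49a was 1.43 (0.5999 to 3.55). Its interval included 1 and lay above the fold of its host, 0.155. As background, standard messenger RNA libraries keep transcripts this short poorly. Snord49a and Snord49b lie in introns of the host. Their few reads may thus come from unspliced host RNA or from the snoRNA, and these cannot be told apart. The values do not show whether the snoRNA itself differed.

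Neighbouring genes were examined because some hosts share a promoter region or an end with another gene. Slc3a2, the heavy chain of several amino acid transporters, starts 105 bases from Snhg1 on the opposite strand. Slc3a2 had 56.4 RPKM in T136A and 172 RPKM in WT, 3.04-fold lower in T136A (2.93 to 3.16), with a log2 ratio of -1.59. The pair was thus lower on both sides of the shared region, Snhg1 by more. Lrrc75a, whose 3′ end lies 76 bases from that of 2410006H16Rik, had 5.57 RPKM in T136A and 11.2 RPKM in WT, 2.01-fold lower (1.70 to 2.39) and at -0.89 on the log2 scale. Trpv2, a cation channel gene 2361 bases upstream of 2410006H16Rik, had 2.05 RPKM in T136A and 2.60 RPKM in WT.

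Next to Snhg12 the values were close between libraries. Trnau1ap, a gene for a protein of selenocysteine insertion that ends 738 bases from Snhg12, had 27.3 RPKM in T136A and 29.4 RPKM in WT. Rab42, a small GTPase gene 5237 bases away on the other side, had 0.857 RPKM in T136A and 1.05 RPKM in WT. Those values came from 12 reads in T136A and 14 in WT, a fold of 0.816 (0.345 to 1.90). Snhg12 was lower without a like difference in Trnau1ap, and Rab42 had too few reads for a close comparison.

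Around the hosts within 2-fold, no neighbour named here passed 2-fold. Syncrip and Zfp949, beside Snhg5, had 12.6 and 2.30 RPKM in T136A, against 16.8 and 2.96 RPKM in WT. Tcf24, beside Snhg6, had 1.35 RPKM in T136A and 1.04 RPKM in WT. Mcmdc2, which overlaps Snhg6 by 127 bases, and Zbtb37, which overlaps Gas5 by 428 bases, were both under 1 RPKM in both libraries, at 0.257 and 0.234 RPKM in T136A and at 0.232 and 0.243 RPKM in WT. The counting rule for strand is not stated, so reads of the overlapped stretches are uncertain. Sgk3, Prss12, Gm9369, Gm37362 and 1700092M07Rik, also beside hosts, were under 1 RPKM in both libraries. The Snhg3 locus lies on the strand of Rcc1 and overlaps it by 5592 bases; Rcc1, a chromatin-bound exchange factor, had 50.2 RPKM in T136A and 45.6 RPKM in WT. Phactr4, the next gene, had 4.78 RPKM in T136A and 4.92 RPKM in WT, and Gm17300, also overlapping Snhg3, was under 1 RPKM in both.

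**Figure D4:**
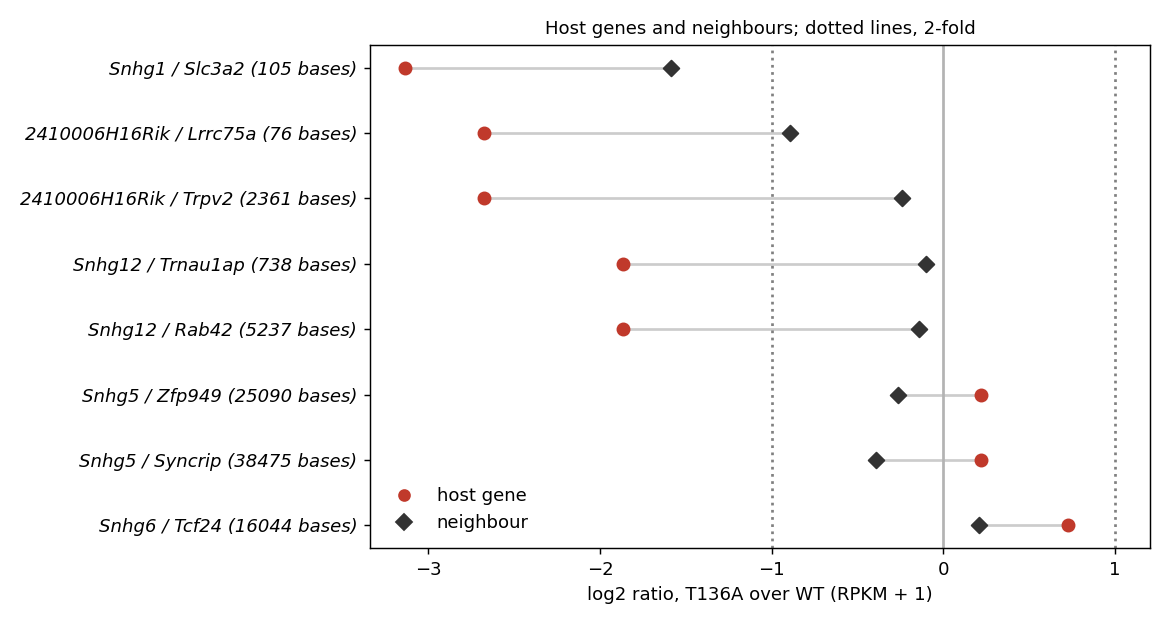
Log2 ratio, T136A over WT with 1 RPKM added, of a host (red circle) and of its adjacent genes reported here at or above 1 RPKM (black diamond), with the bases between the genes in brackets. Slc3a2 and Lrrc75a lie to the left with their hosts, at -1.59 and -0.89, and Trnau1ap lies near 0 beside Snhg12.

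The genes whose pair of levels was most like that of Snhg1, by Euclidean distance of log2(RPKM + 1) over the 2 libraries, were Trib3, Arrdc4 and Mthfd2. Trib3, a stress-induced pseudokinase, had 17.0 RPKM in T136A and 97.3 RPKM in WT, at a distance of 0.56. Arrdc4, an arrestin-like adaptor, had 20.2 RPKM in T136A and 80.5 RPKM in WT, at 0.90. Mthfd2, a mitochondrial enzyme of folate metabolism, had 30.0 RPKM in T136A and 112 RPKM in WT, at 0.99. None of the 3 was as far apart between libraries as Snhg1. Around Snhg8, the host of median log2 ratio, many genes lay close; the nearest were Lrr1 (14.8 RPKM in T136A, 22.9 in WT), the fatty acid desaturase gene Fads1 (14.8 and 23.0) and the pseudogene Gm5527 (14.7 and 23.2). With 2 libraries, such likeness says only that the 2 levels are alike.

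Other hosts of the Snhg kind were within 2-fold more often than past it; GENCODE M21 annotates all of them as non-coding except Taf1d and Snhg11, which it lists as protein-coding. Of 15 listed, 12 had a row and 11 reached 1 RPKM; 2 passed 2-fold downward, 0 upward, and the median log2 ratio was -0.15. Epb41l4aos had 25.5 RPKM in T136A and 53.7 RPKM in WT, 2.10-fold lower (1.77 to 2.50), and Zfas1 had 7.13 RPKM in T136A and 15.4 RPKM in WT, 2.16-fold lower (1.91 to 2.45). Both sat near the threshold, and their count was 0 or 1 under every other scaling tried. Snhg15 followed with 13.8 RPKM in T136A and 26.6 RPKM in WT. At the other end, the imprinted host Rian had 7.65 RPKM in T136A and 3.61 RPKM in WT, a fold of 2.12 (1.98 to 2.28) and a log2 ratio of 0.91. Snhg11 (2.01 RPKM in T136A, 1.23 in WT) and Taf1d (7.94 and 5.82) were the next. None of these 11 was as far below 0 as Snhg12.

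Protein-coding hosts, most of them ribosomal protein and translation factor genes, were nearly all within 2-fold. All 40 reached 1 RPKM, 1 passed 2-fold downward, 1 upward, 27 were below 0, and the median was -0.16. Hspa8, the constitutive Hsc70 chaperone gene, had 967 RPKM in T136A and 220 RPKM in WT, 4.41-fold higher in T136A (4.33 to 4.48). Nop56, a core protein of C/D box snoRNPs as well as a host, had 82.5 RPKM in T136A and 167 RPKM in WT, 2.02-fold lower (1.96 to 2.08). Nop58 (40.1 RPKM in T136A, 64.7 in WT) and Hspa9 (202 and 302) came after Nop56 at the lower end, and Ncl (271 and 173) and Eif4a1 (706 and 503) after Hspa8 at the higher end. The log2 ratio of Nop56 lay at the threshold and fell short of it under 3 of the 4 other scalings.

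Genes of the machinery that makes snoRNA particles were measured in full, 20 of 20. Of these, 1 was at least 2-fold lower (Nop56, counted above as a host), 0 were higher, 13 were above 0, and the median was 0.19. Gar1, a protein of H/ACA particles, had 29.7 RPKM in T136A and 52.5 RPKM in WT. The assembly factors Nufip1 (35.2 RPKM in T136A, 17.5 in WT) and Rpap3 (30.4 and 15.9) and the nucleolar protein gene Nolc1 (83.7 and 50.9) were at the higher end.

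Factors of nonsense-mediated decay, the pathway known to degrade spliced host transcripts, had a median log2 ratio of -0.07 over 20 of 20 genes. Among them 1 passed 2-fold downward and 1 upward. Smg9, a partner of the Smg1 kinase, had 4.36 RPKM in T136A and 12.8 RPKM in WT, 2.94-fold lower (2.57 to 3.37). The helicase gene Upf1 had 19.1 RPKM in T136A and 31.8 RPKM in WT, and Pnrc2 had 17.1 RPKM in T136A and 28.4 RPKM in WT. Rbm8a, of the exon junction complex, had 91.0 RPKM in T136A and 39.0 RPKM in WT, 2.33-fold higher (2.22 to 2.45). Upf3a had 6.81 RPKM in T136A and 4.41 RPKM in WT, and Smg8 had 30.2 RPKM in T136A and 22.1 RPKM in WT. The pathway's genes lay on both sides of 0, 12 below and 8 above.

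RNA surveillance and exosome genes, a list that joins nuclear factors, some of which trim snoRNA precursors, with cytoplasmic decapping and decay enzymes, had 0 of 22 past 2-fold in either direction and a median of -0.03. Zcchc8, of the nuclear exosome targeting complex, had 16.91 RPKM in T136A and 31.96 RPKM in WT. Exosc10 had 29.6 RPKM in T136A and 46.6 RPKM in WT, and Exosc1 had 32.8 RPKM in T136A and 45.5 RPKM in WT. At the higher end were the exosome nuclease gene Dis3 (48.3 RPKM in T136A, 29.5 in WT), the decapping enzyme gene Dcp2 (16.2 and 10.8) and Zcchc7 (2.51 and 1.58).

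The list of ATF4 and amino acid stress genes, to which Slc3a2, Trib3 and Mthfd2 belong, had the largest count of genes past 2-fold downward among the lists compared. Of its 33 genes at or above 1 RPKM, 25 passed 2-fold downward, 0 upward, all 33 were below 0, and the median log2 ratio was -1.39. Over all 12320 genes, 3.1% passed 2-fold downward, 3.13% upward, and 52.6% were below 0. The list was chosen with earlier results of these data known, so nothing is read from its count. Its lowest were Chac1, Nupr1 and Atf3, at -4.41, -4.03 and -3.03, and its highest were Cebpb, Slc38a2 and Ddit4, at -0.57, -0.72 and -0.73; Cebpb, at 0.470 RPKM in T136A and 1.18 RPKM in WT, is near the added 1 RPKM, and its plain fold was 2.51-fold lower. Snhg1 and 2410006H16Rik lay between Nupr1 and Trib3 (-2.45) on this scale, and Gas5, Snhg5 and Snhg6 lay above every gene of the list that reached 1 RPKM. These values stand side by side, and no link between the list and the hosts was tested.

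**Figure D5:**
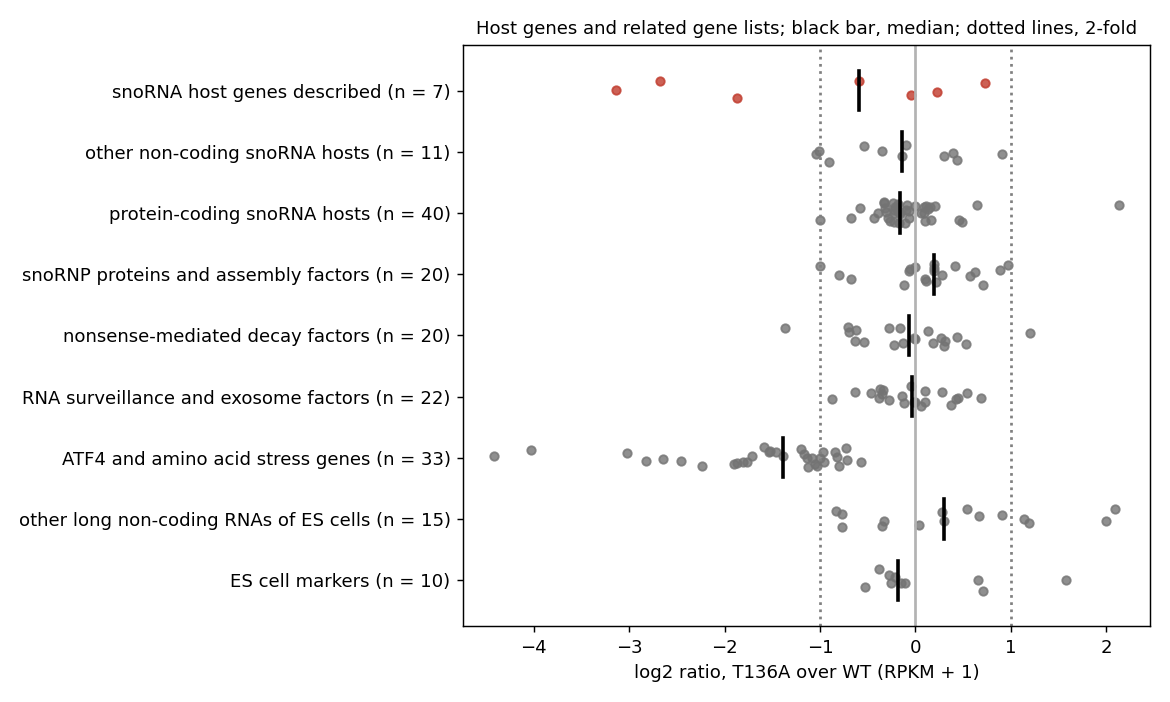
Log2 ratio, T136A over WT with 1 RPKM added, of each gene at or above 1 RPKM in the hosts described (red) and in 8 other lists (grey), with a black bar at the median of each list and dotted lines at 2-fold. The hosts spread from -3.13 to 0.73, the ATF4 list has all points below 0, and the protein-coding hosts gather near 0.

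The tissue label was checked against marker genes. All 10 ES cell markers were above 1 RPKM in both libraries. They summed to 4195 RPKM in T136A and 4271 RPKM in WT, with a median log2 ratio of -0.18. Of these markers, 7 were below 0 and 3 above it. Utf1 was at least 2-fold higher in T136A (284 RPKM, against 94.2 in WT). Tdgf1 (263 RPKM in T136A, 161 in WT) and Zfp42 (397 and 252) came after Utf1. Fbxo15 was the lowest at -0.53, and Nanog and Pou5f1 followed. Fibroblast markers, for feeder cells, summed to 70.8 RPKM in T136A and 116 RPKM in WT over 10 of 14 genes with a row; 4 reached 1 RPKM, and Postn was at 0 in WT and 0.00625 RPKM in T136A. In that list Fn1 was at least 2-fold lower (32.9 RPKM in T136A, 93.4 in WT), while Thy1, Vim and Mmp2 were above 0 on the log2 scale. Markers of differentiated cells summed to 17.65 RPKM in T136A and 17.99 RPKM in WT over 14 genes; 6 reached 1 RPKM, Pax6 was at 0 in both libraries, and Afp was at 0 in WT. Sox1 was lower in T136A (1.55 RPKM, against 7.77 in WT), and among the 6 genes that reached 1 RPKM, Sox17, Gata6 and Krt8 had the highest log2 ratios with 1 RPKM added. Mitochondrially encoded messenger RNAs summed to 29878 RPKM in T136A and 25513 RPKM in WT. The part of these differences in the levels of the hosts was not tested.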

How the data were processed

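RNA of 1 T136A AHCY and 1 WT AHCY library was compared. The authors deposited 1 value per Ensembl gene and library, read here as RPKM from the values themselves: times the GENCODE M21 union exon length and 1 constant per library, 90.0% of positive values in T136A and 89.9% in WT were whole within 0.01. The submitters' processing notes name CASAVA 1.8 and mm9, with no role; aligner, counter and annotation are not given in these sources. M21 and the coordinates printed are of GRCm38, a later build than mm9, and nothing was converted. The design foresaw depth-scaled values, and the values fitted that.

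The implied totals were 18396840 reads (T136A) and 17506153 (WT). Symbols were found for 25696 of 25749 identifiers; 53 had no exon length, and of identifiers sharing a symbol the highest total was used (9 dropped). Genes that reached 1 RPKM in either library were compared by log2((T136A + 1)/(WT + 1)), called at 2-fold; printed folds are plain RPKM ratios. The added 1 understates changes of weak genes. Intervals are 95% exact conditional binomial (Clopper-Pearson) from recovered reads, available in 87.4% of the genes compared. Reads are not independent molecules, so they cover counting error only. No test was possible across genotypes.

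The members and the 12 other gene lists were chosen with earlier results of these data known. Named are all members, up to 3 genes at each end of each list, genes overlapping or next to a member (1 is not reported here), the 3 nearest profiles of Snhg1 and of the median member, and hosted snoRNAs with a row above 0; Snora16a, Snora31, Gm25432 and Gm12688 were named after their values were seen. Alternatives were 2 other added constants, 4 scalings, 3 minimum levels, summed identifiers, the interval as an added condition and folds of recovered reads. Python 3.11.15, pandas 2.3.3, NumPy 2.4.6, SciPy 1.17.1 and matplotlib 3.10.9 were used, and the steps were tested on simulated data.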

Additional observations from a re-analysis of the deposited data

How the results depend on the processing

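In all, 12 alternatives were run, and not all of them recomputed every value. Folds of recovered reads gave host folds only, and the interval as an added condition gave only the count of lower hosts. In each alternative that recomputed it, the count of hosts at least 2-fold lower in T136A stayed at 3. The count of higher hosts likewise stayed at 0, and the median log2 ratio of the hosts ran from -0.62 to -0.49. Of 767 recomputed values, 169 were labelled as moved, and no host or single gene changed its direction. The cause was not tested. Counts were labelled so when they changed by over 1.5 times, and other values when they left a counting interval of plain folds. Log2 values with a constant added were set against that same interval. Genes without recovered reads have no interval, so any change in them was labelled as moved. The label is thus not a measure of counting error alone. List medians changed sign 4 times: that of the differentiated cell markers was -0.67 with a minimum of 5 RPKM, against 0.43, and that of the RNA surveillance factors was 0.0037, 0.019 and 0.016 under 3 scalings, against -0.03. With 5 RPKM added to each value, the fold of Snhg1 was 0.138 and that of Snhg12 was 0.344. Gas5 had a fold from 0.926 to 1.00 in every alternative that recomputed it. Over all genes, 723 were higher and 727 lower with 0.1 RPKM added, 101 and 114 with 5 RPKM added, and 209 were higher with a minimum of 5 RPKM. In the other lists, 11 genes were at least 2-fold higher with 0.1 RPKM added, against 7 as reported. Of single-gene and list values, 108 of 300 and 58 of 360 were labelled as moved. Epb41l4aos, Zfas1 and Nop56 lie near 2-fold and fell short of it under some alternatives. Smg9 was not called with 5 RPKM added, and Nufip1 passed 2-fold under 3 alternatives. Scalings shifted the median log2 ratio of all genes by less than 0.1. No paired analysis was possible because each genotype had 1 library. Depth limits the hosted snoRNAs, at 15 reads or fewer in a library, and not the hosts, at 173 reads or more.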

Other observations

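Among 30 other long non-coding RNAs studied in ES cells, 28 had a row and 15 reached 1 RPKM. Of these 15, 4 passed 2-fold upward in T136A and 0 downward, with a median log2 ratio of 0.29 that ran from 0.03 with no minimum level to 0.91 with a minimum of 5 RPKM. Over all genes, 3.13% passed it upward and 3.1% downward. Over long non-coding RNA genes, the shares were 9.09% and 9.37%. The list was chosen with earlier results of these data known, so nothing is read from its count. Platr14 had 19.9 RPKM in T136A and 3.91 RPKM in WT, 5.09-fold higher (95% counting interval 4.14 to 6.31). Rpph1, the RNA of ribonuclease P, had 25.9 RPKM in T136A and 5.73 RPKM in WT. Its annotation is ribozyme, so it is not among the long non-coding RNA genes of the shares above. It also belongs to the transcripts without poly(A) tails described below. Platr3 had 12.9 RPKM in T136A (98 reads) and 5.13 RPKM in WT (37 reads). Gm12688 had 3.33 RPKM in T136A (43 reads) and 0.978 RPKM in WT (12 reads). The lowest were Tug1 (5.30 RPKM in T136A, 10.2 in WT), Panct2 (1.54 and 3.34) and Platr10 (24.4 and 42.1).

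Over the whole table, 182 genes were annotated as snoRNA or scaRNA. Of these, 60 reached 1 RPKM, 16 passed 2-fold upward in T136A, 5 downward, and 49 were at 0 in both libraries. Over all 12320 genes at or above 1 RPKM, 3.13% passed it upward and 3.1% downward. In genes this short, 1 RPKM can be a few reads. Those lowest on the log2 scale had 0 reads in T136A and 2 or 3 in WT, so nothing is read from these counts. Snora31 had 17 reads in T136A and 2 in WT, a fold of 8.09 (1.92 to 72.2), and Gm25432 had 4 reads in T136A and 0 in WT; these were the highest on the log2 scale with 1 RPKM added. Transcripts without poly(A) tails, which standard messenger RNA libraries keep poorly, summed to 45.3 RPKM in T136A and 24.3 RPKM in WT over 10 genes with a row, of which Rpph1 gave 25.9 RPKM in T136A and 5.73 RPKM in WT. Of the 7 at or above 1 RPKM, 1 was at least 2-fold higher in T136A, Rpph1, and 0 were lower; Hist1h4h and Rn7sk were at the lower end, and Hist1h3e and Hist1h1c followed Rpph1 at the higher end. Of 12 mitochondrially encoded messenger RNAs at or above 1 RPKM, 0 were past 2-fold, the median log2 ratio was 0.25, mt-Co1 was the lowest at -0.05 and mt-Nd2 the highest at 0.68.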
